A study of Mus musculus with 10 samples.

Results

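The genes considered here are 7 that encode proteins of the Z-disc: Actn2, Actn3, Flnc, Ldb3, Tcap, Csrp3 and Cryab. They were chosen as all spots that the array annotation assigned to these 7 symbols. Each gene was represented by 1 oligonucleotide of 65 bases spotted in duplicate, so that 14 of the 15552 spots, or 7 of the 7776 oligonucleotides, belong to them.

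Gene expression was measured in hindlimb muscle (quadriceps femoris) of healthy male mice of 5 inbred strains. These were BL6 (C57Bl/6JOlaHsd) and the related BL10 (C57Bl/10ScSnOlaHsd), together with DBA (DBA/2OlaHsd), CBA (CBA/CaOlaHsd) and the albino BALB (BALB/cOlaHsd). Mice were 6 weeks old on arrival and 8 weeks old when sacrificed, all were wild type, and 2 animals per strain were used. Each of 10 arrays set Cy5-labelled RNA of 1 animal against Cy3-labelled RNA of a mouse from a different strain. The question was how far genetic background alone affects expression in muscle.

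The arrays were arranged in closed loops, a smaller one through BL6 2, CBA 1, BL10 1 and BALB 2 (the number names the animal) and a larger one through DBA 2, BALB 1, CBA 2, BL10 2, DBA 1 and BL6 1. The arrays labelled BL6 2 against CBA 1 and BALB 1 against CBA 2 held identical values at every spot, and neither was used for the values given here, which leaves 8 arrays. Each CBA animal then remained on 1 array, in Cy5 against BL10, so that every CBA level rests on the estimated dye effect. BL6 2 and BALB 1 also remained on 1 array each, both in Cy3, the first against BALB 2 and the second against DBA 2. Duplicate spots correlated at r = 0.645 to 0.853 across all spots of an array, and at 0.693 on that of BALB 2 against BL6 2. The deposited values are ratios without spot brightness, so a level is always set against that gene's own average over the 5 strains, the genes cannot be ranked by abundance, and the presence of muscle or other cell markers could not be checked. In whole muscle, fewer cells of a type and less RNA per cell cannot be told apart.

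The Z-disc borders each sarcomere and anchors the thin filaments of neighbouring sarcomeres, which alpha-actinin cross-links. Around this lattice sit filamin, PDZ and LIM domain adaptors, and the cap protein of titin, which join it to the membrane, to titin and to signalling proteins. Several of these genes carry mutations in inherited muscle and heart muscle disease.

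The members fall into structural cross-linkers (Actn2 and Actn3, the alpha-actinins, and Flnc, the muscle filamin), adaptors (Ldb3, a PDZ-LIM protein that binds alpha-actinin, and Csrp3, the muscle LIM protein), the titin cap (Tcap, telethonin) and a chaperone (Cryab, alphaB-crystallin). In BL6, 4 of them, Actn2, Flnc, Tcap and Ldb3, had their lowest level of the 5 strains, with Actn2 at -1.06 ± 0.19, Flnc at -0.61 ± 0.17, Tcap at -0.85 ± 0.31 and Ldb3 at -0.47 ± 0.25 (log2 relative to the strain mean ± SE, 2 animals per strain). Cryab was instead lowest in CBA, at -0.98 ± 0.27. Actn3 and Csrp3 differed least, with ranges of 0.18 and 0.45 between the highest and the lowest strain. None of the 7 passed an FDR of 10% between strains in limma's moderated F test, for which 10 of all 7697 features (0.130%) were called. This depended on the scaling of the arrays. Actn2, Flnc, Tcap and Cryab passed with equal array spread, at adjusted p of 0.0465 to 0.0475, when 196 features were called, and with quantile normalization, at 0.0612 to 0.0652, when 133 were. At an unadjusted p under 0.05, 4 of the 7 (Actn2, Flnc, Cryab and Tcap) were counted, where 14.0% of all features were. Actn2, Flnc, Ldb3 and Tcap also stand in the list that the study selected on these samples, so this count is no independent evidence.

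**Figure D1:**
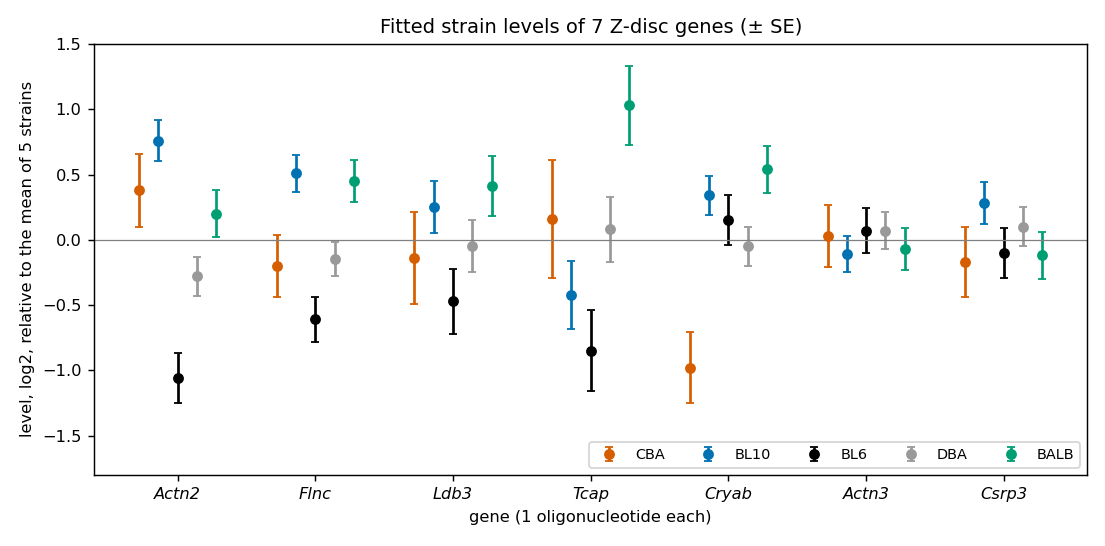
Fitted level of each Z-disc gene (x axis) in the 5 strains (colours) on the log2 scale relative to the mean of the strains (y axis), from 8 arrays. Points are estimates over 2 animals and bars are ± 1 SE. BL6 lies lowest for Actn2, Flnc, Ldb3 and Tcap, down to -1.06, CBA lies lowest for Cryab at -0.98, and the 5 strains lie within 0.18 of each other for Actn3.

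Promoter sequence is shown for Actn2, Flnc and Ldb3, the members low in BL6 for which RefSeq (GRCm38.p6) gave one. RefSeq promoters matched 4 of the 7 members, the other match being Csrp3. Each run covers 250 bases before and 50 bases after a start site and is that of the mouse reference genome. The search covered both strands for the E-box, which reads CANNTG, and for the MEF2 and CArG motifs by name. The motif called MCAT was searched as CATTCC. Each printed run held 1 of these kinds, so none overlapped. The E-box occurs in 72.3% of 32851 mouse promoters of this length, MCAT in 14.7%, CArG in 1.63% and MEF2 in 0.557%. Capitals mark the 3 E-boxes of Actn2, which begin at -245, -84 and -48 from the start site, the MCAT motif of Flnc at -1 and the CArG motif of Ldb3 at -35. Actn2 lies on the minus strand at chr13:12340683-12340982, Flnc on the plus strand at chr6:29432903-29433202 and Ldb3 on the minus strand at chr14:34588632-34588931, the last at a start inside the gene's full span. These are the first promoters listed. Flnc and Ldb3 have another start in the table, from which the same motifs lie at -104 and -109.
Actn2: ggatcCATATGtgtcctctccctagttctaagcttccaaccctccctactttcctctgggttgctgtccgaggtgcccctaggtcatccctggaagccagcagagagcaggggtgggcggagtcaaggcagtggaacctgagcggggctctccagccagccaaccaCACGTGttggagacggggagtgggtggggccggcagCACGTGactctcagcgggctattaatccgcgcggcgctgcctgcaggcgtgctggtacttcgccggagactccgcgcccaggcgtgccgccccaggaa
Flnc: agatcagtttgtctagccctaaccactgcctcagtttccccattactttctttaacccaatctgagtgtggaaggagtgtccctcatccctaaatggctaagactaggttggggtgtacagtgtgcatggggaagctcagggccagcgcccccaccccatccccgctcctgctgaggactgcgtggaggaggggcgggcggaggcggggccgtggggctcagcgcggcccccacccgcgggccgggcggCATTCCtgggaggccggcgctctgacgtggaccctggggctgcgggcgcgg
Ldb3: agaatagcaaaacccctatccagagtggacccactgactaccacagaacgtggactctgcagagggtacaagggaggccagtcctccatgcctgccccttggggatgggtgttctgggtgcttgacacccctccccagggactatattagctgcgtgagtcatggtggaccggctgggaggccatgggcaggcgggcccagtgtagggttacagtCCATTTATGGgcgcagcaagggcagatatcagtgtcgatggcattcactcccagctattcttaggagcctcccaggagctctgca
These matches describe the letters of the reference and not binding, and the sequences of the strains were not compared.

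Actn2 (AF248643, chromosome 13, 12269426 to 12340732 in GRCm38.p6) encodes the alpha-actinin found in all muscle fibres. Its ratio of Cy5 over Cy3, after each array was centred on its median, was 0.37 for DBA 1 against BL6 1, -0.83 for BL6 1 against DBA 2 and 1.43 for BALB 2 against BL6 2. BL6 was the lower sample on all 3 of these arrays. The arrays with BL10 gave 0.61 for BL10 1 against BALB 2, 0.76 for BL10 2 against DBA 1, -0.21 for CBA 1 against BL10 1 and -0.80 for CBA 2 against BL10 2, and DBA 2 against BALB 1 gave -0.59. BL10 was the higher sample on each of its 4 arrays. The order of the fitted levels was therefore BL10 (0.76), CBA (0.38), BALB (0.20), DBA (-0.28) and BL6 (-1.06), a range of 1.83 or 3.55-fold. Among neighbours in this order only DBA and BL6 differed at an unadjusted p under 0.05, by 0.78 ± 0.21 (limma adjusted p = 0.394). Against the mean of the other 4 strains BL6 was lower by 1.33 on the log2 scale, or 2.52-fold (SE 0.24, limma adjusted p = 0.15). The difference was -0.61 with all 10 arrays, -0.59 with the shared values of the identical arrays as BL6 2 against CBA 1, and -2.97 without BL6 1. The F test gave an adjusted p of 0.154, with 0.377% of all features at a smaller p. Taken singly, BL6 1 lay at -0.81 and BL6 2 at -1.50 relative to the mean of CBA, BL10, BL6 and BALB in their own loop, and no animal of another strain lay below -0.32.

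Flnc (AF119148, chromosome 6, 29433153 to 29461889) encodes filamin C, which binds actin at the Z-disc and at the membrane. DBA 1 against BL6 1 gave 0.90, BALB 2 against BL6 2 gave 1.20, and BL6 1 against DBA 2 gave -0.05. The first pair of ratios set BL6 clearly lower. The last became -0.28 after the dye effect of 0.24 was removed, with BL6 again lower. With BL10 the ratios were 0.54 against BALB 2, 0.62 against DBA 1, -0.39 for CBA 1 and -0.57 for CBA 2, and DBA 2 against BALB 1 gave -0.69. BL10 was again the higher sample on its 4 arrays. Fitted levels ran from BL10 (0.51) and BALB (0.45) through DBA (-0.15) and CBA (-0.20) to BL6 (-0.61), a 2.17-fold range with an adjusted p of 0.154. BALB and DBA were the neighbours in this order that differed at an unadjusted p under 0.05 (0.60 ± 0.19, limma adjusted p = 0.854). BL6 was lower than the other 4 by 0.76 on the log2 scale, or 1.69-fold (SE 0.21, limma adjusted p = 0.229). The BL6 animals agreed closely, at -0.63 and -0.72 of their loops, and lay below every other animal.

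Tcap (NM_011540, chromosome 11, 98383811 to 98384953) encodes telethonin, which caps the ends of paired titin molecules in the Z-disc. It had the widest range of the 7 genes, 1.88 or 3.69-fold. DBA 1 against BL6 1 gave 2.08, BALB 2 against BL6 2 gave 1.85, and DBA 2 against BALB 1 gave -1.35. BALB was the higher sample on its 3 arrays, the third being BL10 1 against BALB 2 at -0.66. The remaining ratios were 1.22 for CBA 1 and 0.76 for CBA 2 against BL10, -0.52 for BL10 2 against DBA 1 and -0.15 for BL6 1 against DBA 2. BL10 was the lower sample on its 4 arrays, the reverse of its place for Actn2 and Flnc. Fitted levels were 1.03 in BALB, 0.16 in CBA, 0.08 in DBA, -0.42 in BL10 and -0.85 in BL6, and no neighbours in this order differed at an unadjusted p under 0.05. BALB was above the other 4 strains by 1.29 ± 0.37 (limma adjusted p = 0.36) and BL6 below them by -1.06 ± 0.39 (limma adjusted p = 0.277). Without BL6 1 the fitted BALB value was -0.24 ± 0.25, with 1 residual degree of freedom, although BALB 2 lay at 0.70 of the loop that does not hold BL6 1 and BALB 1 at 1.31 of the other. DBA 1 lay at 0.63 and DBA 2 at -0.46 of the same loop, the widest gap between the DBA animals among the 7 genes, which was not tested.

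Ldb3 (NM_011918, chromosome 14, 34526699 to 34590314) encodes ZASP, also called Cypher. BALB 2 against BL6 2 gave 1.07, DBA 1 against BL6 1 gave 0.83 and BL6 1 against DBA 2 gave 0.08. BL6 was lower on the first pair of arrays. The ratio on the other became -0.15 after the dye effect of 0.22 was removed, and its duplicate spots differed by 0.71. The other ratios were -0.69 for DBA 2 against BALB 1, 0.59 for BL10 1 against BALB 2, -0.06 for BL10 2 against DBA 1, -0.56 for CBA 1 against BL10 1 and 0.23 for CBA 2 against BL10 2. BL10 was the higher sample in its smaller-loop comparisons and not in those of the larger loop. Fitted levels ran from 0.41 in BALB and 0.25 in BL10 through -0.05 in DBA and -0.14 in CBA to -0.47 in BL6. No neighbours differed at an unadjusted p under 0.05, and neither did BL6 from the other 4 strains (-0.58 ± 0.31, limma adjusted p = 0.39). The strain pattern of Ldb3 lay nearest to that of Flnc of all pairs among the 7 genes, with a root mean square difference of 0.144 over the 5 strains.

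**Figure D2:**
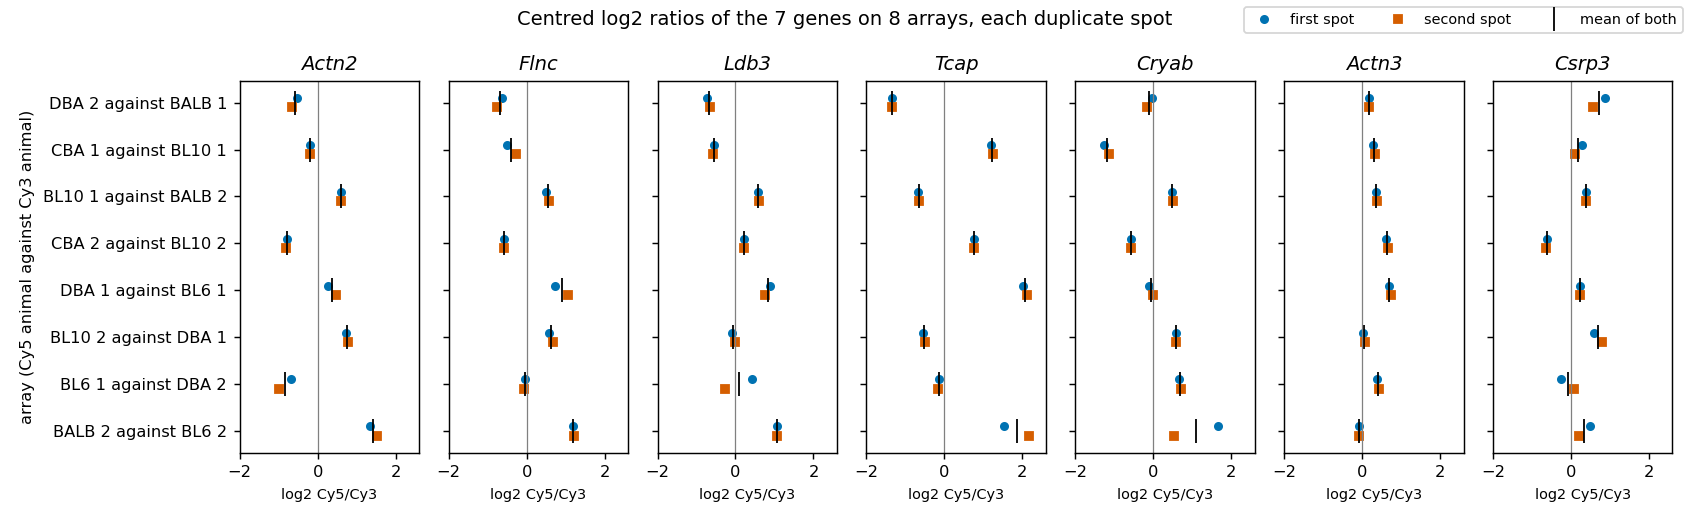
Log2 ratio of Cy5 over Cy3 (x axis), centred per array, for the 7 genes on 8 arrays (y axis, Cy5 animal named first). Circles and squares are the duplicate spots and the bar is their mean. The median difference of duplicates is 0.054 over 56 pairs. In 3 pairs it is over 0.5, with Cryab (1.13) and Tcap on the array of BALB 2 against BL6 2 and Ldb3 (0.71) on that of BL6 1 against DBA 2.

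Cryab (NM_009964, chromosome 9, 50745951 to 50756636) encodes a small heat shock protein that protects desmin and Z-disc proteins. CBA 1 against BL10 1 gave -1.19 and CBA 2 against BL10 2 gave -0.58. CBA was the lower sample on both, and after the dye effect of 0.44 was removed CBA 1 lay at -1.03 of its loop with CBA 2 at nearly the same level. BALB 2 against BL6 2 gave 1.09, BL6 1 against DBA 2 gave 0.69, BL10 2 against DBA 1 gave 0.58 and BL10 1 against BALB 2 gave 0.49. With the dye effect removed these were 0.65, 0.25, 0.15 and 0.05. The duplicate spots on the array of BALB 2 against BL6 2 were 1.65 and 0.52, the widest difference of all 56 pairs of the 7 genes. DBA 2 against BALB 1 gave -0.10 and DBA 1 against BL6 1 gave -0.05, which became -0.54 and -0.49 with the dye effect removed. The order was BALB (0.54), BL10 (0.34), BL6 (0.15), DBA (-0.05) and CBA (-0.98), with DBA above CBA by 0.93 ± 0.37 at an unadjusted p under 0.05 (limma adjusted p = 0.433). CBA was lower than the other 4 by 1.23 on the log2 scale, or 2.34-fold (SE 0.33, limma adjusted p = 0.383), a direction in which 6.42% of all features were counted at an unadjusted p under 0.05 and 1 of the 7 genes was. Without a dye term the CBA difference was -0.43 ± 0.41. The values shared by the identical arrays, both of whose labels put a CBA animal in Cy3, gave ratios of 1.05 for Cryab, 0.75 for Actn2, 0.60 for Flnc, 0.54 for Ldb3 and 0.36 for Tcap. Read by the label BL6 2 against CBA 1, these ratios, dye effect included, set BL6 above CBA for all 5 genes. That is against the low place of BL6 for 4 of them. Read by the label BALB 1 against CBA 2, they set BALB above CBA. With the dye effect removed, Tcap was at -0.05, so that neither label set its Cy5 strain above CBA. The other values stayed positive, at 0.87 for Actn2, 0.62 for Cryab, 0.36 for Flnc and 0.31 for Ldb3.

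Actn3 (NM_013456, chromosome 19, 4861216 to 4877909) is the alpha-actinin of fast fibres, and Csrp3 (NM_013808, chromosome 7, 48830398 to 48848051) a LIM protein that binds alpha-actinin and telethonin. The 8 ratios of Actn3 ran from -0.08 to 0.70, and those of Csrp3 from -0.62 to 0.71. Actn3 levels lay between -0.11 (BL10) and 0.07 (DBA), a range of 1.14-fold, and Csrp3 levels between -0.17 (CBA) and 0.28 (BL10), a range of 1.37-fold. No neighbours differed for either gene at an unadjusted p under 0.05. For Actn3 the F test gave an adjusted p of 0.893 and for Csrp3 0.51. BL6 stood at 0.08 ± 0.21 for Actn3 and -0.13 ± 0.24 for Csrp3 against the other 4 strains. The root mean square difference between the levels of the alpha-actinins Actn2 and Actn3 was 0.687 over the strains, a description with no test.

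**Figure D3:**
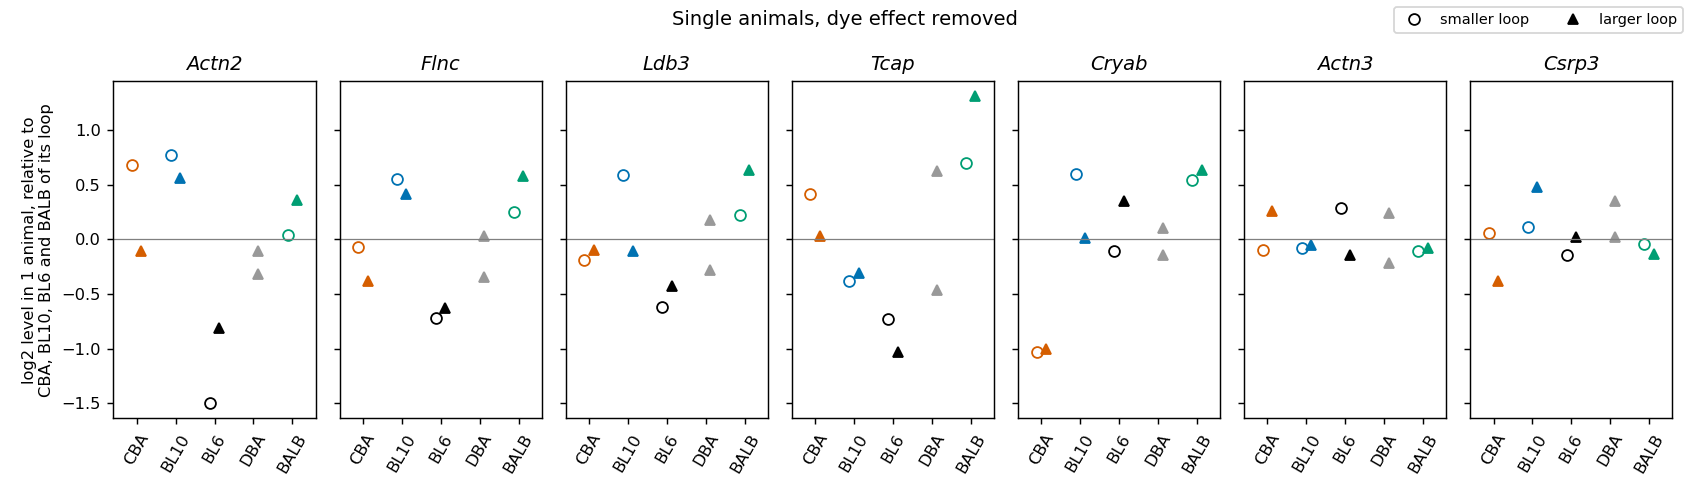
Level of each animal on the log2 scale, relative to the mean of CBA, BL10, BL6 and BALB in its own loop (y axis), by strain (x axis) and gene (panel), with the dye effect removed. Open circles are animals of the smaller loop and filled triangles those of the larger loop. Both BL6 animals lie below all others for Actn2, Flnc, Ldb3 and Tcap, and both CBA animals lie lowest for Cryab.

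Set against all features, BL6 was below the other 4 strains at an unadjusted p under 0.05 for 3 of the 7 genes (Actn2, Flnc and Tcap) and above them for 0, where 6.64% of all features were counted as lower. At an FDR of 10% it was 0 of the 7 and 0.0650% of all features. The median difference of BL6 from the other 4 was -0.58 over the 7 genes and 0.04 over all features. BALB was above the other 4 for 3 genes (Flnc, Tcap and Cryab) at an unadjusted p under 0.05, where 7.15% of all features were. Actn2, Flnc and Tcap stand in the list that the study selected on these samples. These counts are therefore no independent evidence.

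The strains at opposite ends were then compared directly, a pair singled out of 10 after the levels were seen. Between BALB and BL6, 3 of the 7 genes passed an FDR of 10%, a call made for 3.75% of all features in this direction. All 3 stand in the list that the study selected on these samples, so this count too is no independent evidence. Actn2 was higher in BALB by 1.27 ± 0.22 (2.41-fold, limma adjusted p = 0.0572), Flnc by 1.06 ± 0.19 (2.08-fold, limma adjusted p = 0.0572) and Tcap by 1.88 ± 0.35 (3.69-fold, limma adjusted p = 0.0579). Ldb3, at 0.88 ± 0.28 (1.84-fold, limma adjusted p = 0.135), was counted only at an unadjusted p under 0.05, as 12.2% of all features were. Within the smaller loop, from the 1 array of BALB 2 against BL6 2, the difference was 1.55 for Actn2, 0.97 for Flnc, 1.43 for Tcap and 0.85 for Ldb3. Within the larger loop it was 1.18, 1.21, 2.33 and 1.06 for the same genes, so that it had 1 direction in both. The 3 calls were lost with the first spot alone (limma adjusted p = 0.114 for Actn2 and Flnc and 0.13 for Tcap), with all 10 arrays as labelled (0.272 each), without a dye term and without shared spread. Without BALB 1 none was called, and without BL6 2 Tcap alone was. BL10 also exceeded BL6 at an unadjusted p under 0.05 for Actn2 (1.83 ± 0.32, limma adjusted p = 0.128) and Flnc (1.12 ± 0.27, limma adjusted p = 0.272), as it did for 5.78% of all features.

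**Figure D4:**
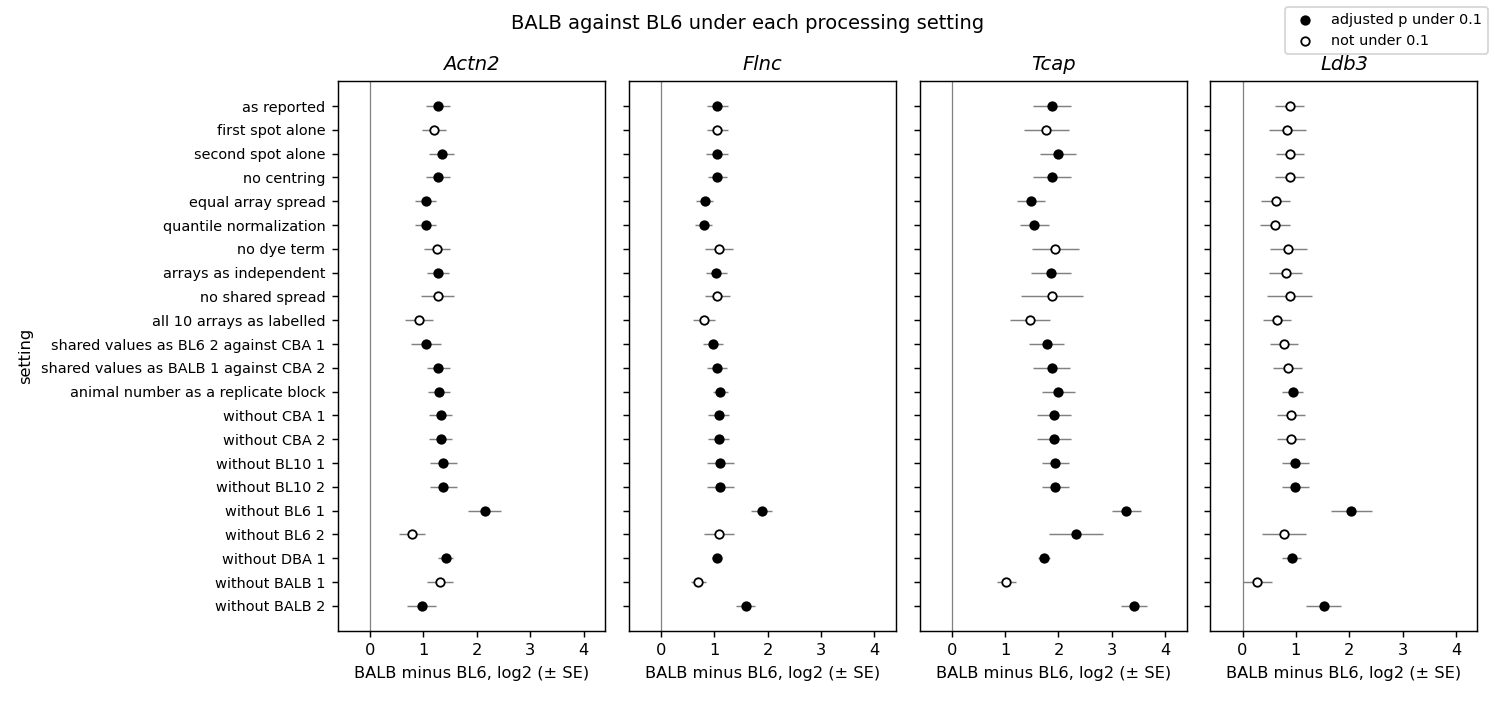
Difference of BALB from BL6 on the log2 scale (x axis, ± 1 SE) for 4 genes under the reported setting and 21 others (y axis). Filled points have a limma adjusted p under 0.1 over all features and open points do not. Every estimate lies above 0, and the lowest are 0.79 for Actn2, 0.70 for Flnc, 1.02 for Tcap and 0.28 for Ldb3.

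Of 49 further genes listed for the Z-disc, 33 were measured, by 37 features. None passed an FDR of 10% between strains and 13 (35.1%) were counted at an unadjusted p under 0.05, beside 14.0% of all features. Nebulin, the ruler of the thin filament, had 4 features, all among these 13. They were low in BL6 (-1.74, -0.87, -1.47 and -1.21) and high in BALB (1.20, 1.10, 1.18 and 1.05). The limma adjusted p between strains of these features ran from 0.149 to 0.307. Smpx, a small muscle protein, was highest in BALB at 1.02 and lowest in CBA at -0.99 (limma adjusted p = 0.149). Fhl3, a LIM protein, was highest in CBA at 0.47 and lowest in DBA at -0.57 (0.149), and Rcan1, a calcineurin regulator, ranged from -0.42 in CBA to 0.39 in BL10 (0.154). Myoz1, which binds calcineurin and alpha-actinin, and Des, the muscle intermediate filament, were highest in BALB at 0.51 and 0.43 (0.295 each). In the list as a whole 4 features were below and 1 above the other strains in BL6 at an unadjusted p under 0.05. The 4 below were those of nebulin, and so of 1 gene. The median in BL6 was -0.02, and of all features 6.64% were below and 645 of 7697 above. In BALB 12 were above and 0 below, where 7.15% of all features were above, with a median of 0.20, beside 0.00 over all features. These counts are of features and not of genes, and nebulin holds 4 of the 37.

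**Figure D5:**
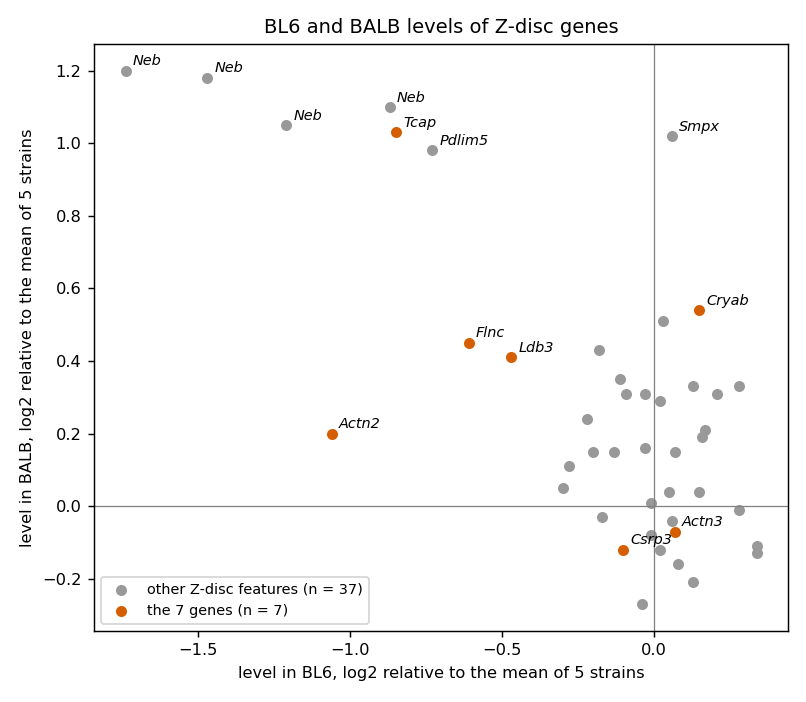
Level in BL6 (x axis) against level in BALB (y axis), both log2 and relative to the average strain, for the 7 genes (orange) and the 37 features of other Z-disc genes (grey). Labels on grey points were chosen after the values were seen. The 4 nebulin features, Pdlim5 and Tcap lie at the upper left, low in BL6 and high in BALB, and most grey points lie near 0 in BL6.

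Of the marker lists of other cells, that of fibroblasts was low in BL6. Of 6 fibroblast genes 4 were measured, all 4 were below the other strains in BL6 and 3 were so at an unadjusted p under 0.05 (Col1a1 by -0.81, Col3a1 by -1.25 and Fn1 by -0.63), where 6.64% of all features were, with a median of -0.72. The same 4 genes were also all lower in DBA, with a median of -0.52 and 2 at an unadjusted p under 0.05. Of 11 fast fibre genes 6 were measured, with a median of 0.03 in BL6 and of -0.57 in CBA, where all 6 were lower. Of these, Tnnt3 and Tnnc2, which encode fast troponin subunits, were at -0.75 each in BL6 at an unadjusted p under 0.05. The other fast fibre genes measured lay slightly above the other strains in BL6, from 0.01 (Casq1) to 0.20 (Tnni2). In DBA all 6 were higher, with a median of 0.46. Of them 3 were so at an unadjusted p under 0.05, as 271 of all 7697 features were. Medians in BL6 were 0.03 for 5 adipocyte, 0.15 for 6 endothelial, -0.01 for 6 slow fibre and -0.01 for 6 leukocyte genes, -0.00 for 5 nerve features and -0.47 for 2 blood genes. The 3 smooth muscle genes measured were all higher in BL6, with a median of 0.35 and 1 at an unadjusted p under 0.05. In CBA, where Cryab was low, the smooth muscle genes had a median of -0.53. The part of these markers in the levels of the 7 genes was not tested.

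The genes whose 5 strain levels lay nearest to those of a member were named for the 4 members counted between strains. For Actn2 they were Col3a1, a collagen, at a root mean square difference of 0.133, Sebox at 0.161 and Fabp4, a fatty acid binding protein, at 0.185. For Flnc they were Bcl7b at 0.0419, Etv2 at 0.0596 and Phka1, a phosphorylase kinase subunit, at 0.0633. For Tcap they were Apobec2 at 0.139, Ptp4a2 at 0.232 and Lao1 at 0.253, and Apobec2 was itself called between strains (limma adjusted p = 0.0356). For Cryab they were Omg at 0.157, Erbb4 at 0.157 and Aym1 at 0.163, each lowest in CBA.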

How the data were processed

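Total RNA (1 μg) of each muscle was reverse transcribed, labelled and hybridised. The authors quantified the spots in GenePix Pro, subtracted local background and normalised intensities by VSN. The deposited values are natural log ratios per spot, not averaged over duplicates; the log base and the direction (Cy5 over Cy3) are not stated in the table and were taken from VSN and the dyes in the labels. Spots marked by GenePix are not identified.

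Duplicate spots were averaged, 80 features of 1 control were averaged to 1, and ratios were converted to log2 and centred on each array's median, leaving 7697 features, of which the 7 genes were part. Symbols came from the platform annotation, updated through GRCm38.p6. A linear model of the strains, with the dye effect estimated gene by gene, was fitted in limma 3.58.1 (R 4.3.3), with the animal as a random term (variance ratio 0.446) and 3 residual degrees of freedom. Moderated F tests and contrasts were adjusted by Benjamini and Hochberg over all 7697 features for each comparison separately, not over the comparisons, with an FDR of 10% as threshold. Levels of single animals used MASS 7.3.60.0.1. Figures were drawn with matplotlib 3.10.9 in Python 3.11.15. The steps were also run on simulated data with known strain changes, for which no result is given here.

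The members, gene lists and tests were chosen with earlier results of these data known. Named were all members, up to 8 further Z-disc features with the smallest p under 0.05, and the 3 nearest genes of each member counted between strains. The fourth nebulin feature and Pdlim5 fell outside this rule and were added after their values were seen. Alternatives were either spot alone, no centring, equal array spread, quantile normalization, no dye term, independent arrays, no shared spread, the identical arrays under either label or both, a replicate block and leaving out each animal. For BALB against BL6 they were added after the values were seen. The number of arrays limits the precision, and spot brightness is not held in the values.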

Additional observations from a re-analysis of the deposited data

How the results depend on the processing

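Over the 21 alternatives fitted, 9 results kept their direction in all 189 values, but not their size. These were BL6 against the other strains and BALB minus BL6 for Actn2, Flnc, Ldb3 and Tcap, and CBA for Cryab. Tcap in BALB against the other 4 strains, 1.29 as reported, was not among the 9 and was -0.24 without BL6 1. BL6 against the other strains ran from -2.97 to -0.59 for Actn2, -2.58 to -0.43 for Flnc, -4.33 to -0.31 for Tcap and -3.00 to -0.05 for Ldb3, each lowest without BL6 1 and, except for Actn2, highest without BALB 1, and CBA ran from -1.38 to -0.43 for Cryab. The fit without DBA 2 was not run, since the dye effect could not then be estimated. Leaving out an animal left 1 or 2 of the 3 residual degrees of freedom, and counts from such fits varied widely. A strain reduced to 1 animal was assumed to vary like the others.

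The 10 features called between strains became 3 with the first spot alone, 196 with equal array spread, 133 with quantile normalization, 3 without a dye term, 0 without shared spread (the count at an unadjusted p under 0.05 by limma being 1080 as reported), 6 with all 10 arrays and 33 with the shared values as BL6 2 against CBA 1. Actn2, Flnc, Tcap and Cryab were among those called with equal spread and with quantile normalization, and Cryab (limma adjusted p = 0.0939) with those shared values. Flnc was also called with the animal number as a replicate block. Among the alternatives that kept every animal, Ldb3, Actn3 and Csrp3 were called in none. Calls of the 7 genes between strains in fits without an animal are not counted here, since the number of features called in them varied widely. Leaving out an animal gave 4 (without BL6 2) to 4354 (without DBA 1). Of the 7 genes, 4 were counted at an unadjusted p under 0.05, and 0 were without shared spread. The 5 features lower in BL6 became 23 with the second spot alone, 38 with quantile normalization, 0 without a dye term, 2 with independent arrays, 0 without shared spread, 0 with all 10 arrays, 10 and 78 with the shared values under the BL6 2 and the BALB 1 label, and 2 to 1561 without an animal. The 0 features higher in BL6 became 4 with the second spot, 1 with equal spread, 9 with quantile normalization, 1 and 6 with the shared values under those labels, and 0 to 2079 without an animal. The 3 calls of BALB over BL6 became 0 with the first spot alone, without a dye term, without shared spread and with all 10 arrays. Over all features the 289 calls in this direction became 3 with the first spot alone and 0 in the other settings just named. Both counts also varied in fits without an animal. The cause of these shifts was not tested.

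Values near 0 changed sign, and so did Tcap in BALB, which was 1.29 as reported. For Actn3, BL10 against the other strains was 0.04 without a dye term, 0.00 with all 10 arrays, 0.01 with the shared values as BL6 2 against CBA 1 and -0.36 to 0.02 without an animal. For Actn3 in BL6 the values were -0.01 with the first spot, -0.00 with equal spread, -0.01 with quantile normalization, -0.25 without a dye term, -0.19 with all 10 arrays, -0.19 and -0.10 with the shared values under either label, and -0.18 to 0.34 without an animal. Csrp3 in BL6 was 0.01 with the second spot and -0.42 to 0.53 without an animal. Cryab in BL6 was -0.25 without a dye term, -0.01 when the shared values took the BALB 1 label and -0.44 to 0.37 without an animal. Tcap in BALB ran from -0.24 without BL6 1 to 3.38 without BALB 2.

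The labels' animal numbers only name animals and pair none. With the number as a replicate block, 57 features were called between strains, Flnc among them (limma adjusted p = 0.0899), and 0 were lower in BL6. Actn3 in BL6 was then -0.01. For BALB over BL6, 4 of the 7 genes were called, Ldb3 being added. So were 452 of all 7697 features, beside 289 as reported.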
